A study of Mus musculus with 9 samples.

Results

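The cells described here are those outside the endothelium in the brains of aged mice that received exenatide and of aged mice that did not. They were taken from single-cell libraries of both groups by the cell type that the authors had annotated. Every type other than endothelial cells (EC) that had at least 10 cells in each of the 6 libraries was kept. Of 15 annotated types other than EC, 7 met that limit and 8 did not. The 7 types were astrocytes (AC), microglia (MG), oligodendrocyte precursor cells (OPC), smooth muscle cells (SMC), pericytes (PC), choroid plexus epithelial cells (CPC) and macrophages (MAC). Together they held 27486 of the 72543 cells in the series, of which 8046 came from aged and 19440 from exenatide-treated aged libraries.

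All animals were male C57BL/6J mice, and all libraries came from dissociated whole brain tissue after removal of myelin (the cerebellum was left out). Young adult mice were 2 to 3 months old and aged mice 18 to 20 months old. Exenatide-treated aged mice were also 18 to 20 months old and had received 5 nmol/kg of exenatide per day by intraperitoneal injection for 4 to 5 weeks, starting at 17 to 18 months. The labels do not say whether the untreated aged mice received injections of vehicle. Each group has 3 libraries, numbered 1, 2 and 4, and the libraries of one number belong to one batch. Each library's label names 3 mice, and how the animals were divided among libraries is not stated. The study's text names fewer young adult and aged mice per group than 3 libraries of separate animals would need, so that libraries of a group may share animals. P-values therefore measure the spread between libraries, which are pools and whose differences may be partly technical. The comparison asks how the aged brain's other cell types differed after treatment. The young adult libraries give the level before ageing. They enter the fits through the filter on low counts, the scaling, the batch term and the estimate of the spread.

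Exenatide is a peptide agonist of the glucagon-like peptide 1 (GLP-1) receptor and is used to treat type 2 diabetes. The receptor couples to adenylyl cyclase, and the cyclic AMP (cAMP) that is formed activates protein kinase A and the exchange factors of the Rapgef family, and through the kinase the transcription factor CREB. Astrocytes take up glutamate and potassium and make most of the cholesterol that neurons use, microglia are the resident immune cells of the tissue, smooth muscle cells and pericytes form the walls of arterioles and capillaries, and the choroid plexus epithelium secretes cerebrospinal fluid.

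The annotated types carried their defining markers. Aldoc, a glycolytic enzyme of astrocytes, was at a mean of 4519 CPM (the usual count scaled to library total, here the UMIs of the gene among all UMIs of the summed cells) in AC and at 406 CPM in the type that was next, OPC. Tmem119, a microglial surface protein, was at 2161 CPM in MG against 128 CPM in MAC, and Mrc1, the mannose receptor of macrophages, was at 917 CPM in MAC against 9.16 CPM in PC. Acta2, the actin of smooth muscle, was at 11462 CPM in SMC against 91.5 CPM in the next type, Kcnj8, a potassium channel of pericytes, at 1428 CPM in PC against 22.2 CPM, and Pdgfra, the growth factor receptor of precursor cells, at 882 CPM in OPC against 12.3 CPM. Ttr, the thyroid hormone carrier of the choroid plexus, was at 307769 CPM in CPC. It also reached 4658 CPM in SMC, the type that was next. In all 7 types, the summed level of the own markers overlapped between aged and exenatide-treated aged libraries.

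The libraries were unequal in size. The aged libraries held 938, 5932 and 5497 cells of all types (numbers 1, 2 and 4) and the exenatide-treated aged libraries 9546, 7411 and 11664. Aged library 1 stood apart from the rest. It contributed 596 cells of the 7 types, as few as 11 MAC, 16 OPC, 29 PC and 31 SMC, and its cells had the highest median number of UMIs in 6 of the 7 types among the 6 libraries. The smallest sum, MAC of aged library 1, held 27267 UMIs, and the 7 types together held 1642344 to 15138345 UMIs per library. Libraries of one batch shared 0 cell barcodes, and libraries of different batches shared 5 to 226. Values without aged library 1 are given beside the results that rest on it.

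The UMIs of a type's cells were summed within each library, and the edgeR quasi-likelihood test was fitted with the library as the replicate. A gene was called at an FDR-adjusted P below 0.05 and an absolute lnFC (natural log of the fold change, exenatide-treated aged over aged) above 0.1. In the fit without a batch term, 0 genes were called in each of the 7 types, which is 0% of the genes tested. With unadjusted P under 0.05, that fit had 127 of 10745 genes in AC (1.18%), 59 of 10312 in MG (0.572%), 27 of 7552 in OPC (0.358%), 95 of 6024 in SMC (1.58%), 26 of 1543 in PC (1.69%), 38 of 5912 in CPC (0.643%) and 39 of 2400 in MAC (1.62%). DESeq2 and limma without the batch term also called 0 genes in each type. Libraries of one number deviated together in every type, so that the numbers pair the libraries. With the batch as a block, 2 genes were called in SMC (0.0332% of those tested) and 0 in the other 6 types. In that fit, unadjusted P was under 0.05 for 6.61% of the genes in AC, 5.71% in MG, 1.97% in OPC, 5.11% in SMC, 5.83% in PC, 6.58% in CPC and 4.29% in MAC. With the batch term DESeq2 called 1 gene in AC and 1 in CPC, and limma 1 gene in CPC. Levels of single genes below are CPM after TMM scaling (trimmed mean of M values) of the library totals, and summed levels of markers are unscaled CPM. Unless stated otherwise, each lnFC below is from the fit with the batch term, with its SE, and genes described only by an unadjusted P were not called. Where such genes belong to a list of a pathway, they were chosen after their values were seen.

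The 2 called genes were Slc27a1 and F3 in SMC, and both were higher after treatment. Slc27a1 encodes a transporter of long-chain fatty acids and lies on the plus strand of chromosome 8 (GRCm38, 71568882 to 71587302). It was at 0, 11.0 and 12.8 CPM in the aged libraries and at 50.8, 57.7 and 69.3 CPM in the exenatide-treated aged libraries, from 0, 4 and 2 UMIs and from 27, 26 and 32 UMIs. Each treated library was above each aged library (as for 3.78% of all genes), and the young adult libraries reached 15.7, 43.4 and 69.0 CPM. Slc27a1 rose by an lnFC of 1.86 ± 0.37 (95% interval 1.11 to 2.60, edgeR, FDR-adjusted P = 0.0402). F3 encodes tissue factor, the cell surface protein that starts the extrinsic pathway of coagulation, and lies on the plus strand of chromosome 3 (121723537 to 121735048). No UMI of F3 was found in the aged SMC libraries, and the treated libraries held 17, 3 and 34 UMIs, or 32.0, 6.65 and 73.6 CPM. Against a floor of 3 counts over the aged group, the pooled level of F3 was at least 7.49-fold higher (FDR-adjusted P = 0.0402 by edgeR). Both Slc27a1 and F3 passed the filter on low counts only through treated and young adult libraries, where they were higher than in the aged ones. The adjusted P of either gene is therefore no separate support for its difference. For F3 the young adult libraries were at 17.5, 4.82 and 102 CPM, so that the lowest young adult and treated values were both those of library 2.

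Both genes are transcribed most in another cell type. In the young adult libraries, the level of Slc27a1 in SMC was 7.06% and that of F3 5.19% of the level in AC, where each was highest. The summed markers of astrocytes in SMC were at 73.0, 600 and 272 CPM in the aged and at 830, 605 and 1774 CPM in the treated libraries, and the groups did not overlap. Of the 17 genes tested of astrocyte transport and metabolism, 7 had an unadjusted P under 0.05 in SMC, all 7 higher after treatment (3.07% of all genes), with a median lnFC of 0.87. The part of these transcripts in the calls of Slc27a1 and F3 was not tested. Without the batch term neither gene was called. In the fit of the 6 aged and treated libraries with the batch term, 0 genes were called in SMC by edgeR (275 of 5129 with an unadjusted P under 0.05), where the FDR-adjusted P of Slc27a1 was 0.134 and F3 did not pass the filter on low counts. The FDR-adjusted P of both was 0.185 without aged library 1, and both also lost the call without aged library 4 (0.180 for Slc27a1 and 0.9998 for F3), treated library 1 (0.123 and 0.0955) or treated library 2 (0.0731 and 0.0559).

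Genes of the contractile apparatus did not pass the test in SMC. Of 17 genes tested, 0 were called by edgeR with or without the batch term and 0 had an unadjusted P under 0.05, with a median lnFC of 0.02 beside 0.02 for all genes tested. Acta2 was at 15045, 13261 and 10166 CPM in the aged libraries and at 11230.0, 13249 and 8981 CPM in the exenatide-treated aged libraries (lnFC -0.13 ± 0.09, interval -0.32 to 0.06). Myh11, the myosin heavy chain of smooth muscle, had an lnFC of 0.03 ± 0.10 (interval -0.16 to 0.23). Without aged library 2, 2 members were higher and 1 lower with an unadjusted P under 0.05 (6.26 and 2.98% of all genes), and the other 5 fits without a library had 0. Of 10 pericyte genes tested in SMC, 7 had a negative lnFC, with a median of -0.30, and 2 had an unadjusted P under 0.05, both lower (2.04% of all genes). Rgs5, a regulator of G protein signalling and marker of pericytes, was at 1737, 657 and 1558 CPM in the aged libraries and at 1002, 530.0 and 938 CPM in the exenatide-treated aged libraries (lnFC -0.43 ± 0.11, unadjusted P = 0.000367). Within each batch the treated library was the lower one, although aged library 2 lay below treated libraries 1 and 4. Over the fits without 1 library the median of the pericyte list lay between -0.44 (without aged library 2, 5 lower beside 2.98% of all genes) and -0.04 (without aged library 4, 1 lower and 1 higher beside 1.30 and 2.27%). The second was Higd1b, a mitochondrial protein of pericytes (lnFC -0.36 ± 0.16, unadjusted P = 0.0383).

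**Figure D1:**
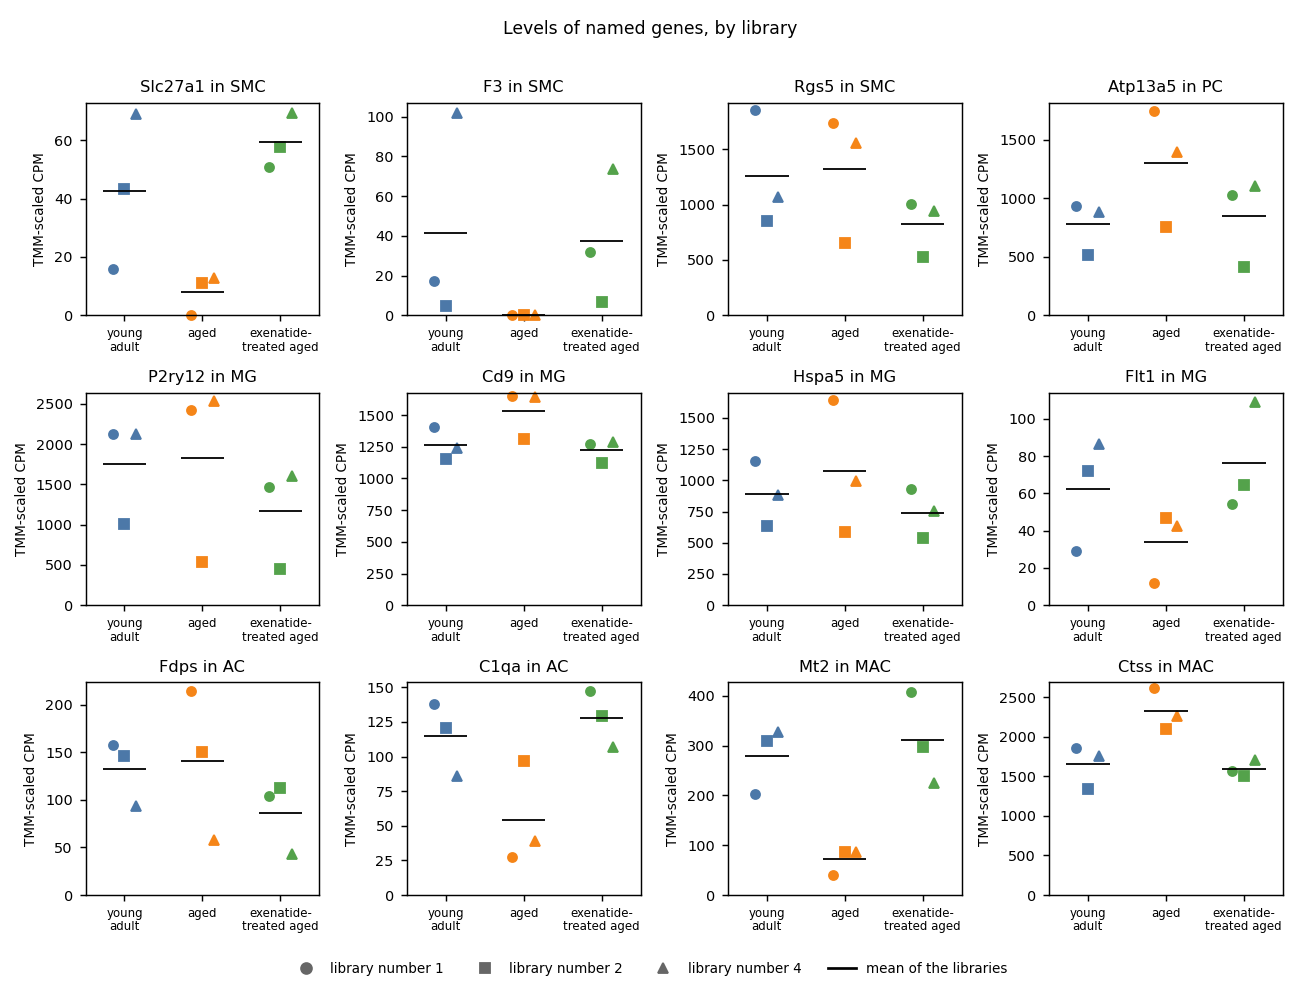
Level of 12 genes in one cell type each, in TMM-scaled CPM per library (linear axis), for young adult, untreated aged and treated aged libraries; the shape of a point marks the library number (1, 2 or 4) and the black line the group mean. Slc27a1 and F3 in SMC do not overlap between the aged and treated groups, whereas P2ry12 and Hspa5 in MG overlap between them and differ in the same direction within each batch.

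Transcripts of other cell types moved with the treatment groups in most types. For each type, the markers of the 15 other annotated types were summed, which gives 105 combinations of a type and a marker list. The group mean was higher in treated than in aged libraries in 75 of the 105, and the libraries did not overlap in 14 that were higher and 2 that were lower. In such sums, transcripts from few cells of another type and from less RNA in each cannot be told apart, and their source was not tested.

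Microglial markers were the most widespread. In AC, the summed level of 9 markers of MG was 246, 569 and 262 CPM in the aged and 664, 629 and 615 CPM in the treated libraries, and the young adult libraries were at 599, 619 and 552 CPM. The 3 treated libraries lay above the 3 aged ones, and the young adult values were close to the treated ones. All 9 markers were tested in AC, 9 had a positive lnFC and 7 an unadjusted P under 0.05, all higher (3.58% of all genes). In OPC the sums were 310, 565 and 361 CPM against 974, 748 and 799 CPM, in CPC 221, 310 and 177 against 508, 401 and 410 CPM, and in PC 270, 598 and 330 against 1142, 651 and 1155 CPM. None of these groups overlapped. In SMC the sums were 188, 618 and 123 against 517, 772 and 623 CPM, where aged library 2 lay above treated library 1. In MG the same was seen of other types, as markers of EC summed to 230, 508 and 304 against 536, 631 and 614 CPM. Markers of EC in AC were at 252, 622 and 365 against 551, 704 and 609 CPM, and those groups overlapped. When aged library 1 was left out, 7 of the 9 markers of MG had an unadjusted P under 0.05 in AC, 8 of 9 in CPC and 5 of 9 in OPC, all higher (2.54, 3.30 and 1.23% of all genes). Without aged library 4 the counts were 5, 4 and 3 (2.04, 1.71 and 1.11%). In OPC the median lnFC of the 9 was 0.73 with all libraries and 0.37 without aged library 4. In each of these types aged library 2, which held the most cells of the aged ones, was nearest to its treated partner.

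**Figure D2:**
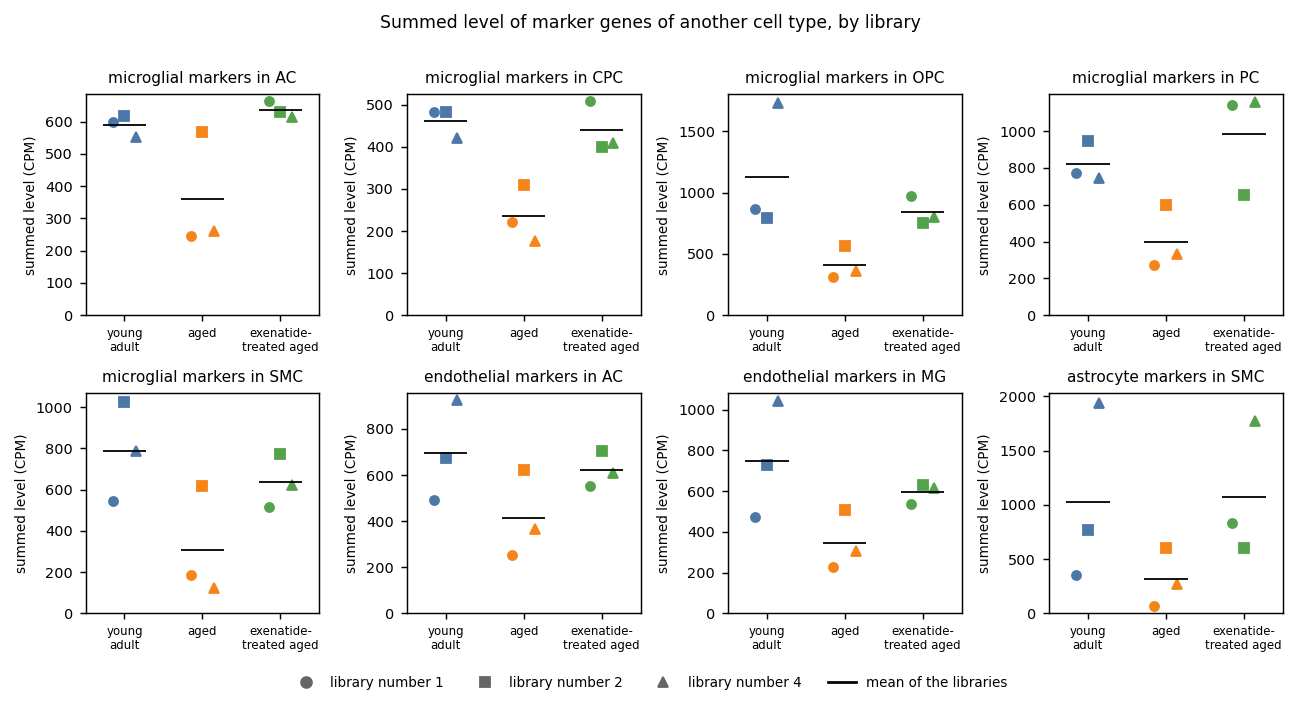
Summed level of the markers of one type in the cells of another, in CPM per library (linear axis), for young adult, untreated aged and treated aged libraries in 8 combinations; shapes give the library number and black lines the group means. The treated libraries lie above the aged ones in 6 of the 8 panels, and in the panels of endothelial markers in AC and of microglial markers in SMC these groups overlap.

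Beyond the markers, all genes tested in a type were divided by their level in the young adult libraries relative to the type in which they were highest, and genes under 10% of that level are called low in the type. Of the genes tested in MG, 13.9% were low in the type, and of those with an unadjusted P under 0.05 and a positive lnFC 68.3% were. The shares were 10.3 and 42.3% in AC, 9.54 and 32.5% in CPC, 3.39 and 24.5% in OPC, 4.21 and 33.9% in PC, 5.88 and 40.0% in SMC, and 4.00 and 12.3% in MAC. Among genes with an unadjusted P under 0.05 and a negative lnFC, the share low in the type was 1.89 to 5.45%. In OPC (5.45%) and MAC (5.26%) this was above the share of all genes tested, and in the other types it was below it. The median lnFC of genes low in the type was 0.18 in AC and CPC, 0.21 in OPC, 0.24 in MG, 0.26 in MAC, 0.30 in PC and 0.35 in SMC. Genes at 50% or more of their highest type had medians between -0.05 and 0.00. Of the 256 higher genes that were low in MG, 72 were highest in EC and 70 in AC. Of 163 such genes in AC, 49 were highest in MG and 46 in EC, and of 74 in SMC, 25 were highest in AC.

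The shift differed between batches. In batch 1, with 938 aged and 9546 treated cells, the median of the genes low in the type lay above that of all genes by 0.101 in OPC to 0.414 in MAC on the natural log scale. In batch 4, with 5497 and 11664 cells, the difference was 0.178 to 0.510. In batch 2, with 5932 and 7411 cells, it was 0.0335 in AC, 0.0604 in CPC, 0.0625 in MG, 0.0498 in PC, 0.0581 in SMC and 0.148 in OPC, and -0.317 in MAC. The batch whose libraries were most alike in size thus had the smallest difference in 5 of the 7 types, a reversal in MAC, and an intermediate value in OPC. Library size and treatment differ together in batches 1 and 4, and their parts in the shift cannot be told apart there. Leaving out aged library 1, the difference with the batch term was 0.170 in AC, 0.251 in MG, 0.170 in OPC, 0.346 in SMC, 0.299 in PC, 0.173 in CPC and 0.244 in MAC.

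**Figure D3:**
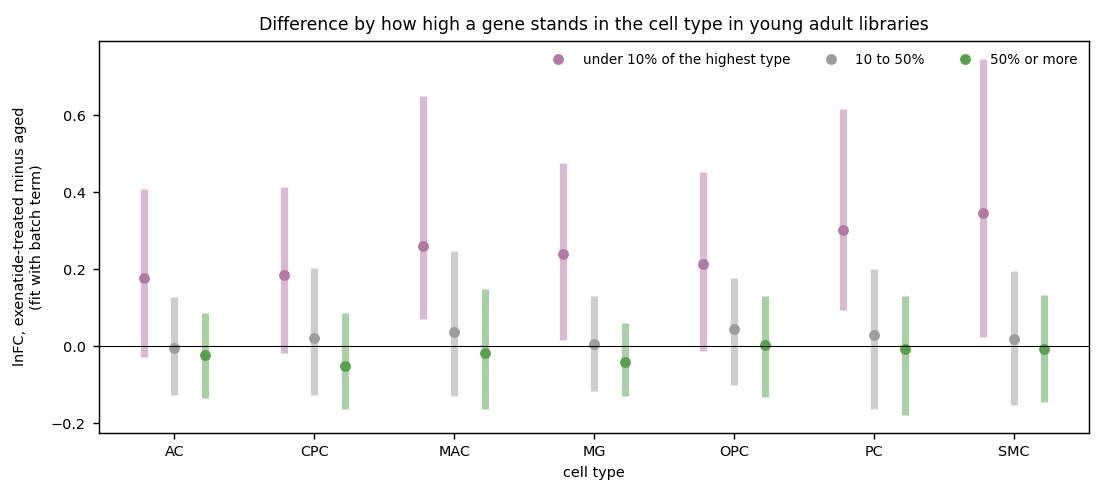
Median (dot) and quartiles (bar) of lnFC, exenatide-treated aged over aged, in the fit with the batch term, for genes grouped by their young adult level as a percentage of the type where they were highest, in 7 types. Genes under 10% have medians of 0.18 to 0.35, and genes at 50% or more have medians of -0.05 to 0.00.

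In AC, most genes of cholesterol synthesis had negative values after treatment, and none was called. Of 28 genes of cholesterol synthesis and uptake, 27 were tested, 22 had a negative lnFC, and 8 had an unadjusted P under 0.05, all 8 lower (3.02% of all genes), with a median lnFC of -0.19 beside -0.00 for all genes. The 8 were Mvk, Idi1 and Fdps of the mevalonate pathway, Hmgcs1, a synthase that acts before them, and Sqle, Msmo1, Nsdhl and Sc5d, which turn squalene into cholesterol. Of the 27 genes, 24 were at 50% or more of their highest type in AC. Fdps, which joins isoprenoid units, was at 215, 151 and 57.5 CPM in the aged libraries and at 104, 113 and 43.1 CPM in the exenatide-treated aged libraries. The groups overlapped, and the treated library was the lower one in each batch (lnFC -0.44 ± 0.13, interval -0.70 to -0.18, unadjusted P = 0.00146, FDR-adjusted P = 0.401 by edgeR). Idi1, an isomerase of the same pathway, was at 202, 31.6 and 135 CPM in the aged libraries and at 102, 36.1 and 81.7 CPM in the exenatide-treated aged libraries. It was lower in batches 1 and 4 and slightly higher in batch 2 (lnFC -0.44 ± 0.13, unadjusted P = 0.00172). Sqle, the epoxidase of squalene, was at 128, 74.4 and 108 CPM in the aged libraries and at 82.4, 72.1 and 70.2 CPM in the exenatide-treated aged libraries, the treated library lower in each batch and least so in batch 2 (lnFC -0.32 ± 0.12, unadjusted P = 0.0104). Msmo1, a sterol oxidase, was at 829, 238 and 677 CPM in the aged libraries and at 512, 209 and 486 CPM in the exenatide-treated aged libraries (lnFC -0.32 ± 0.10, unadjusted P = 0.00318).

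Srebf2, the transcription factor of the pathway, had an lnFC of 0.08 ± 0.12 (unadjusted P = 0.489). Without aged library 1, 2 of the 27 genes were lower with an unadjusted P under 0.05 (1.46% of all genes), 24 had a negative lnFC and the median was -0.21. Over the 6 fits that each left out one library, 2 to 9 members were lower with an unadjusted P under 0.05, beside 1.46 to 3.51% of all genes. The median of the list lay between -0.23 and -0.14. In other types with more than 10 of the genes tested, the median was 0.03 in MG, 0.03 in OPC, 0.05 in SMC and 0.13 in CPC. This difference between types was not tested for the list, and no gene of AC differed in its response from EC or OPC after adjustment.

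**Figure D4:**
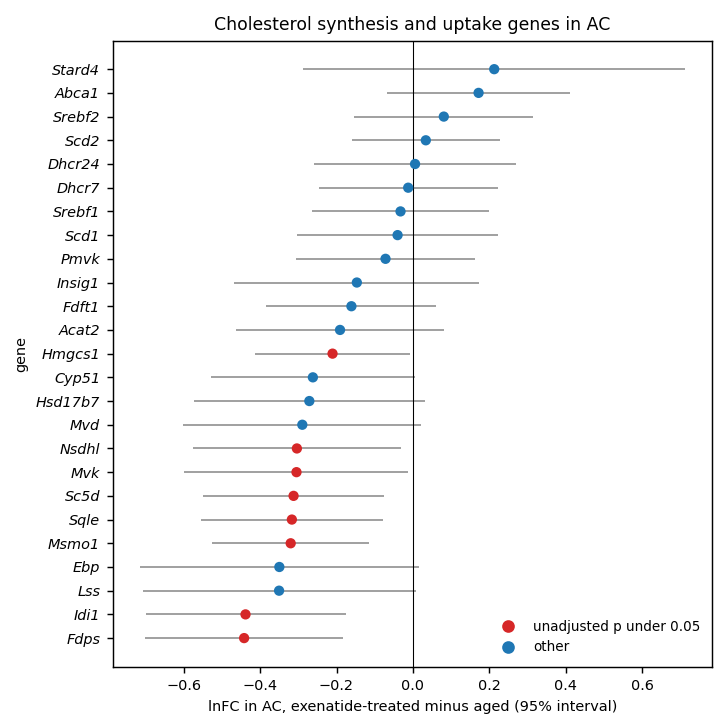
lnFC of 25 of the 27 genes of cholesterol synthesis and uptake tested in astrocytes, exenatide-treated aged over aged, with 95% intervals from the edgeR fit with the batch term; red marks an unadjusted P under 0.05. All 8 red intervals lie below 0, and 20 of the 25 points are negative.

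Transcription of these enzymes is known to be driven by sterol regulatory element binding proteins, and the promoter of Hmgcs1 is shown because it was the only list member whose promoter held the element's motif. Hmgcs1 was at 257, 154 and 215 CPM in the aged libraries and at 192, 146 and 165 CPM in the exenatide-treated aged libraries in AC (lnFC -0.21 ± 0.10, unadjusted P = 0.0431). The letters TCACNCCAC were searched on both strands in windows of 250 bases before to 50 after the start site (RefSeq, GRCm38.p6), and 388 of 27025 genes with a promoter held them, or 1.44%. Of the 27 genes tested, 18 had a promoter in that table and 1 held the motif. The window is chr13:119690101-119690400 on the plus strand, with the motif in capitals, its first base at -137 from the start site.
Hmgcs1 promoter: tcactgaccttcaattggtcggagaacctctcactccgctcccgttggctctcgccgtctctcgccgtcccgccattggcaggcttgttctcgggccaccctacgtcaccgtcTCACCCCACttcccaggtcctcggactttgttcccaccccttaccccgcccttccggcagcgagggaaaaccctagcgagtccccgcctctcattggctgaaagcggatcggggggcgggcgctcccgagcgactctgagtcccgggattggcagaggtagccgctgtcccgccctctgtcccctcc
One match among 18 promoters is a description of this window only.

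Of 18 genes of astrocyte transport and metabolism, 1 was lower with an unadjusted P under 0.05 (3.02% of all genes), Aqp4, the water channel of astrocyte endfeet. Aqp4 was at 544, 487 and 596 CPM in the aged libraries and at 346, 449 and 531 CPM in the exenatide-treated aged libraries. It was lower within each batch, and the groups overlapped (lnFC -0.21 ± 0.09, unadjusted P = 0.0316). Slc1a2, the main glutamate transporter, had an lnFC of 0.14 ± 0.10 (interval -0.05 to 0.33). Of 10 genes of reactive astrocytes that were tested, 0 were called by edgeR and 0 had an unadjusted P under 0.05. Gfap, the intermediate filament that marks reactive astrocytes, had an lnFC of 0.12 ± 0.11 (interval -0.11 to 0.35).

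Of 15 genes of the metallothionein and glucocorticoid response tested in AC, 14 had a positive lnFC, with a median of 0.26. Of these 15, 7 had an unadjusted P under 0.05, all higher (3.58% of all genes). The 7 were Mt1, Mt2, Hif3a, Sgk1, Per1, Nfkbia and Cdkn1a. Mt1 and Mt2 bind zinc and copper, and Sgk1 and Per1 are induced by glucocorticoids. Mt1 was at 9158, 11145 and 9852 CPM in the aged libraries and at 15579.6, 13002 and 10501 CPM in the exenatide-treated aged libraries, higher in each batch (lnFC 0.26 ± 0.10, unadjusted P = 0.017). Mt2 was at 2621, 3131 and 2632 CPM in the aged libraries and at 4503, 3940.4 and 2569.9 CPM in the exenatide-treated aged libraries, higher in batches 1 and 2 and slightly lower in batch 4 (lnFC 0.26 ± 0.10, unadjusted P = 0.0168). Of the 15, 4 were higher with an unadjusted P under 0.05 without aged library 1 (2.54% of all genes) and 3 without aged library 4 (2.04%). Of 27 genes of the immediate early and dissociation response, 8 had an unadjusted P under 0.05, all higher (3.58% of all genes). The median was 0.36, and 23 of the 27 were low in AC relative to another type. The count of higher members was 1 without aged library 4 (median 0.20, 2.04% of all genes), 15 without aged library 2 (median 0.62, 4.79%), 5 without aged library 1 (2.54%) and 4 without treated library 1 (2.59%). These were transcription factors such as Fos, Egr1, Jun and Atf3.

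The genes of AC with the smallest P values in each direction were Adgrf5 and Cldn5, higher, and Phlda1 and Nfs1, lower. Adgrf5, an adhesion receptor of the endothelium, was at 1.6, 10.2 and 12.7 CPM in the aged libraries and at 16.4, 25.2 and 32.0 CPM in the exenatide-treated aged libraries (lnFC 1.08 ± 0.21, unadjusted P = 1.42e-05), and its young adult level in AC was 3.62% of that in EC. Cldn5, the tight junction protein of brain endothelium, was at 41.7, 109 and 78.3 CPM in the aged libraries and at 112, 175 and 113 CPM in the exenatide-treated aged libraries (lnFC 0.56 ± 0.12, unadjusted P = 5.23e-05) and its level in AC was 2.19% of that in EC. Among the microglial genes, C1qa, a subunit of the first complement component, was at 27.3, 96.9 and 39.4 CPM in the aged libraries and at 147, 129 and 107 CPM in the exenatide-treated aged libraries (lnFC 0.86 ± 0.19, unadjusted P = 0.000423). All 3 were higher in each batch, and none has its main site of expression in AC. Nfs1, a cysteine desulfurase that supplies iron-sulfur clusters, was at 65.8, 41.8 and 33.0 CPM in the aged libraries and at 32.8, 17.0 and 26.5 CPM in the exenatide-treated aged libraries, and Phlda1 had lower values of the same size (lnFC -0.59 ± 0.16). Phlda1 was low in AC, at 5.03% of the young adult level in its highest type. The fit of the 6 aged and treated libraries with the batch term called Adgrf5, C1qa, Cldn5 and Phlda1. Their FDR-adjusted P was 0.00184, 0.0104, 0.0189 and 0.0439 by edgeR. The fit of 9 libraries called none of them.

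In MG, most genes of the homeostatic state had small negative values, and none was called. All 20 genes of the list were tested, 16 had a negative lnFC and 3 an unadjusted P under 0.05, all lower (2.08% of all genes), with a median of -0.11 beside -0.00 for all genes. P2ry12, the purinergic receptor with which microglia sense ATP and ADP, was at 2429, 532 and 2534 CPM in the aged libraries and at 1466, 446 and 1607 CPM in the exenatide-treated aged libraries. The treated library was lower in each batch, and aged library 2 was the lowest of the aged libraries by far (lnFC -0.39 ± 0.13, unadjusted P = 0.0097, FDR-adjusted P = 0.77 by edgeR). Gpr34, a receptor for lysophosphatidylserine, was at 1332, 395 and 1482 CPM in the aged libraries and at 929, 342 and 1051 CPM in the exenatide-treated aged libraries (lnFC -0.29 ± 0.09, unadjusted P = 0.00569). It was lower within each batch. Tmem119 had an lnFC of -0.11 ± 0.10 and Cx3cr1, the fractalkine receptor, of 0.04 ± 0.10. In the fit without aged library 1, 0 of the 20 had an unadjusted P under 0.05 by edgeR and 16 were negative, with a median of -0.10. Without treated library 2, 5 were lower (2.48% of all genes), with a median of -0.17.

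Genes associated with ageing and disease of microglia were divided. Of 33 genes, 31 were tested and 11 had a negative lnFC, with a median of 0.01. An unadjusted P under 0.05 was found for 3, all lower (2.08% of all genes). Cd9, a tetraspanin of activated microglia, was at 1649.9, 1309 and 1642 CPM in the aged libraries and at 1272, 1121 and 1285 CPM in the exenatide-treated aged libraries (lnFC -0.22 ± 0.09, unadjusted P = 0.0196). The 3 treated values lay below the 3 aged ones, and 3 members of the list did not overlap in that direction (1.78% of all genes). Ccl6, a chemokine, was at 173, 175 and 145 CPM in the aged libraries and at 107, 131 and 135 CPM in the exenatide-treated aged libraries (lnFC -0.28 ± 0.11, unadjusted P = 0.0238), and B2m, the light chain of class I MHC, at 4269, 1966 and 3381 CPM in the aged libraries and at 3119.5, 1786 and 2637 CPM in the exenatide-treated aged libraries (lnFC -0.22 ± 0.10, unadjusted P = 0.0418). B2m overlapped between groups. Apoe, the lipoprotein that disease-associated microglia produce, had an lnFC of 0.03 ± 0.10 (interval -0.17 to 0.23). Leaving out aged library 1, 1 of the 31 was lower with an unadjusted P under 0.05 (1.18% of all genes) and 23 were negative, so that the balance of signs in this list depends on that library.

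Genes of protein folding and stress of the endoplasmic reticulum were not called in MG. Of 19 tested, 14 had a negative lnFC, 4 were lower and 1 higher with an unadjusted P under 0.05 (3.64% of all genes were higher), and the median was -0.09. Hspa5, the main chaperone of the endoplasmic reticulum, was at 1647, 583 and 993 CPM in the aged libraries and at 929, 539 and 752 CPM in the exenatide-treated aged libraries (lnFC -0.31 ± 0.10, unadjusted P = 0.00485). It was lower in each batch, by the least in batch 2. Xbp1, a transcription factor of the unfolded protein response, was at 220.3, 212 and 170.5 CPM in the aged libraries and at 122, 204 and 143 CPM in the exenatide-treated aged libraries (lnFC -0.26 ± 0.11, unadjusted P = 0.0273), and Herpud1 and Pdia3 were the others, while Sel1l was higher. Without aged library 1, 0 of the 19 had an unadjusted P under 0.05 by edgeR, and the median was -0.05. Of the same genes, 1 was lower without treated library 1 (0.973% of all genes). Aged library 1 had the highest value of Hspa5 and its MG had the highest median of UMIs per cell.

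Cytokines were divided as well. Of 24 genes tested, 3 were higher (Tnf, Cxcl12, Cxcl14) and 3 lower (Ccl2, Ccl6, Il6) with an unadjusted P under 0.05, beside 3.64 and 2.08% of all genes. Ccl2, the chemokine that draws monocytes, was at 184, 33.5 and 213 CPM in the aged libraries and at 105, 20.0 and 140.3 CPM in the exenatide-treated aged libraries (lnFC -0.48 ± 0.12, unadjusted P = 0.00061), lower in each batch with groups that overlapped. The young adult levels of Ccl2 and Cxcl12 in MG were 7.55 and 2.12% of those in their highest types, so that both were low in the type. Tnf was at 296, 149.5 and 293 CPM in the aged libraries and at 445, 141 and 413 CPM in the exenatide-treated aged libraries, higher in batches 1 and 4 (lnFC 0.23 ± 0.11, unadjusted P = 0.0449). Of 20 genes of class I and II MHC, 2 were lower with an unadjusted P under 0.05 (2.08% of all genes) and the median was -0.09. Of 28 genes of the immediate early and dissociation response, Jun and Klf6 were lower and 0 higher with an unadjusted P under 0.05 by edgeR. The shares of all genes were 2.08 and 3.64%.

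The higher genes of MG with the smallest P values belonged to other types. Gria2, a glutamate receptor subunit, was at 1.52, 3.98 and 4.35 CPM in the aged libraries and at 6.33, 8.21 and 25.1 CPM in the exenatide-treated aged libraries (lnFC 1.43 ± 0.26, unadjusted P = 2.6e-05), and its level in MG was 1.53% of that in AC. Flt1, a receptor for vascular endothelial growth factor, was at 12.2, 46.6 and 42.3 CPM in the aged libraries and at 54.3, 64.6 and 109 CPM in the exenatide-treated aged libraries (lnFC 0.84 ± 0.16, unadjusted P = 7.2e-05), or 2.28% of the level in EC. Each was higher in every batch. Of the 18 genes of astrocyte transport and metabolism tested in MG, 12 were higher with an unadjusted P under 0.05 (3.64% of all genes), and 17 were low in MG. The lowest P among lower genes was that of Fam105a, at 462, 193 and 427 CPM in the aged libraries and at 226, 134 and 304 CPM in the exenatide-treated aged libraries (lnFC -0.47 ± 0.11, unadjusted P = 0.0006), a gene that was highest in MG. The fit of the 6 aged and treated libraries with the batch term did call Fam105a (FDR-adjusted P = 0.00207 by edgeR). It also called Ccl2 (0.00409), Gria2 and Flt1 (0.000471 each). The fit of 9 libraries called none of them.

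In CPC, the transport proteins of the epithelium were divided and none was called. Of 20 genes tested of choroid plexus secretion and transport, 2 were higher (4.79% of all genes) and 2 lower (1.79% of all genes) with an unadjusted P under 0.05, with a median of 0.06 beside 0.01. Slc12a2, the sodium, potassium and chloride cotransporter, was at 41.1, 333 and 158 CPM in the aged libraries and at 168, 306 and 217 CPM in the exenatide-treated aged libraries. It was higher in batches 1 and 4 and lower in batch 2, and aged library 1 alone was below all other libraries (lnFC 0.37 ± 0.16, unadjusted P = 0.0251). Slc4a10, a bicarbonate transporter, was at 75.3, 213 and 143 CPM in the aged libraries and at 201, 179 and 211 CPM in the exenatide-treated aged libraries (lnFC 0.35 ± 0.16, unadjusted P = 0.0319). The carbonic anhydrase Car2 was at 993, 318 and 648 CPM in the aged libraries and at 501, 282 and 543 CPM in the exenatide-treated aged libraries, lower in each batch (lnFC -0.31 ± 0.14, unadjusted P = 0.0233), and the potassium channel Kcnj13 had an lnFC of -0.28 ± 0.14 (unadjusted P = 0.0465). Without aged library 1, aged library 4 or treated library 1, 0 of the 20 had an unadjusted P under 0.05 by edgeR. Without treated library 2, 7 were higher and 2 lower, beside 8.69 and 1.91% of all genes. The median in that fit was 0.18 beside 0.05 for all genes, and Slc4a10 was called (FDR-adjusted P = 0.0497 by edgeR). Ttr was at 394591, 279525 and 261907 CPM in the aged libraries and at 523957, 295012 and 224909 CPM in the exenatide-treated aged libraries (lnFC 0.06 ± 0.09, interval -0.11 to 0.23).

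Nuclear genes of the respiratory chain had small negative values in CPC. Of 73 tested, 62 had a negative lnFC, with a median of -0.09 beside 0.01 for all genes. All genes tested in CPC at 50% or more of their highest type had a median of -0.05, and 39.6% of them were higher. Whether the list differed from that class was not tested, and its values without single libraries are not given here. Of the 73, 1 was lower with an unadjusted P under 0.05 (1.79% of all genes). It was Ndufs1, the largest subunit of complex I, at 144, 51.5 and 59.3 CPM in the aged libraries and at 57.8, 33.2 and 41.3 CPM in the exenatide-treated aged libraries, lower in each batch (lnFC -0.52 ± 0.19, unadjusted P = 0.00504). The other lower gene with the smallest P was Tpd52l1, at 274, 119 and 263 CPM in the aged libraries and at 145, 87.0 and 167 CPM in the exenatide-treated aged libraries (lnFC -0.46 ± 0.16, unadjusted P = 0.00351). The higher genes with the smallest P values were C1qa and Tmsb4x. C1qa was at 20.5, 55.5 and 26.1 CPM in the aged libraries and at 156, 75.2 and 65.0 CPM in the exenatide-treated aged libraries (lnFC 0.82 ± 0.19, unadjusted P = 1.16e-05, FDR-adjusted P = 0.0653, edgeR), and its level in CPC was 1.11% of that in MG. Tmsb4x, which binds actin monomers and is abundant in immune cells, was at 281, 226 and 254 CPM in the aged libraries and at 616, 367 and 452 CPM in the exenatide-treated aged libraries (lnFC 0.60 ± 0.14, unadjusted P = 2.21e-05, FDR-adjusted P = 0.0653, edgeR). Neither gene overlapped between groups (3.25% of all genes were higher without overlap), and both were called with relative log expression scaling and the batch term.

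In PC, 2 of 12 pericyte genes were lower with an unadjusted P under 0.05 (2.2% of all genes), and the median of the list was -0.07 beside 0.01. Atp13a5, a transporting ATPase found in brain pericytes, was at 1746, 755 and 1389.9 CPM in the aged libraries and at 1029.6, 412 and 1105 CPM in the exenatide-treated aged libraries. It was lower in each batch, and the groups overlapped through aged library 2 (lnFC -0.42 ± 0.13, unadjusted P = 0.00408). P2ry14, a receptor for UDP-glucose, was at 1671, 1144 and 1076 CPM in the aged libraries and at 1245, 749.9 and 753 CPM in the exenatide-treated aged libraries, lower in each batch (lnFC -0.35 ± 0.12, unadjusted P = 0.00933). Kcnj8 had an lnFC of -0.05 ± 0.12 (interval -0.31 to 0.21) and Rgs5 of -0.11 ± 0.12. The count of lower members was 2 in each of the 6 fits that left out a library, beside 1.73 to 2.94% of all genes. Gnb4, a subunit of heterotrimeric G proteins, was at 374, 526 and 583 CPM in the aged libraries and at 243, 225 and 364 CPM in the exenatide-treated aged libraries (lnFC -0.57 ± 0.18, unadjusted P = 0.00509), and its groups did not overlap (2.79% of all genes). Flt1 was at 99.8, 137 and 164 CPM in the aged libraries and at 262, 412 and 603 CPM in the exenatide-treated aged libraries (lnFC 1.20 ± 0.24, unadjusted P = 6.74e-05) and Cldn5 at 99.8, 389 and 239 CPM in the aged libraries and at 206, 731 and 502 CPM in the exenatide-treated aged libraries (lnFC 0.68 ± 0.19, unadjusted P = 0.00141). Both were higher in each batch and are endothelial, with levels in PC of 5.94 and 3.54% of those in EC. Of 71 nuclear genes of the respiratory chain, 5 were higher and 2 lower with an unadjusted P under 0.05, beside 3.63 and 2.2% of all genes.

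In OPC, 0 of 16 identity genes were called by edgeR and 0 had an unadjusted P under 0.05, with a median of 0.03 beside 0.02. Pdgfra was at 913, 514 and 1550.3 CPM in the aged libraries and at 711, 456 and 1408 CPM in the exenatide-treated aged libraries (lnFC -0.15 ± 0.13, interval -0.42 to 0.12). Without aged library 1, which held 16 OPC, the median was -0.13 and 14 of the 16 genes were negative. Without treated library 4 the median was -0.05 and 10 were negative, so that the sign of the list depends on single libraries. The genes with the smallest P values were mt-Nd6 and Flt1, higher, and H2-Ab1 and Sf3a2, lower. H2-Ab1, the beta chain of a class II MHC molecule, was at 0, 12.4 and 72.6 CPM in the aged libraries and at 2.83, 2.43 and 14.4 CPM in the exenatide-treated aged libraries (lnFC -1.62 ± 0.34, unadjusted P = 0.000115), and the direction came from batches 2 and 4 (0.728% of all genes were lower with an unadjusted P under 0.05). Sf3a2, a splicing factor, was at 136, 79.4 and 33.5 CPM in the aged libraries and at 48.1, 50.9 and 10.8 CPM in the exenatide-treated aged libraries (lnFC -0.76 ± 0.26, unadjusted P = 0.00802). Flt1 was at 38.9, 79.4 and 87.5 CPM in the aged libraries and at 73.6, 218 and 145 CPM in the exenatide-treated aged libraries (lnFC 0.78 ± 0.20, unadjusted P = 0.000656), at 4.41% of its level in EC. Of 17 genes of homeostatic microglia tested in OPC, 5 were higher with an unadjusted P under 0.05 (1.24% of all genes).

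In MAC, the sums rest on 11 to 201 cells. Mt2 was at 40.4, 87.4 and 86.9 CPM in the aged libraries and at 409, 298 and 226 CPM in the exenatide-treated aged libraries (lnFC 1.32 ± 0.28, unadjusted P = 0.000143, FDR-adjusted P = 0.342, edgeR). Every treated library lay above every aged one (3.46% of all genes did so). Klf2, a transcription factor that responds to shear stress and to dissociation, was at 80.7, 2659.6 and 213 CPM in the aged libraries and at 568, 4848 and 484 CPM in the exenatide-treated aged libraries, higher in each batch but far apart between batches (lnFC 0.78 ± 0.18, unadjusted P = 0.000722). Ctss, a lysosomal protease, was at 2624, 2098 and 2266 CPM in the aged libraries and at 1575, 1504 and 1709 CPM in the exenatide-treated aged libraries (lnFC -0.37 ± 0.11, unadjusted P = 0.00289), and the 3 treated values lay below the 3 aged ones (3.04% of all genes did so). Sft2d1, a gene of vesicle transport, was at 444, 275 and 505 CPM in the aged libraries and at 159, 162 and 273 CPM in the exenatide-treated aged libraries (lnFC -0.68 ± 0.19, unadjusted P = 0.00196) and did not overlap either. Of 26 genes of ageing and disease of microglia that were tested in MAC, 1 was lower with an unadjusted P under 0.05 (1.58% of all genes), Lgals3, which encodes galectin-3. Lgals3 was at 0, 125 and 245 CPM in the aged libraries and at 39.9, 49.7 and 98.1 CPM in the exenatide-treated aged libraries, and the direction came from batches 2 and 4, as no UMI was found in aged library 1. The macrophage receptor Mrc1 had an lnFC of 0.02 ± 0.13 (interval -0.26 to 0.29).

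The mitochondrial gene mt-Nd6, the complex I subunit that is encoded on the light strand of the mitochondrial genome (chromosome M, 13552 to 14070, minus strand), was higher with an unadjusted P under 0.05 in AC, MG, OPC, SMC, PC and CPC. In OPC it was at 58.3, 14.9 and 81.9 CPM in the aged libraries and at 99.1, 29.1 and 233 CPM in the exenatide-treated aged libraries (lnFC 0.88 ± 0.21, unadjusted P = 0.000482). In MG it was at 44.1, 10.2 and 63.3 CPM in the aged libraries and at 54.3, 19.5 and 191 CPM in the exenatide-treated aged libraries (lnFC 0.77 ± 0.22, unadjusted P = 0.0048). In AC the lnFC was 0.52 ± 0.15, in SMC 0.62 ± 0.24, in PC 0.72 ± 0.29 and in CPC 0.39 ± 0.19, and in CPC aged library 1 lay above treated library 1. The largest ratios within a batch were those of batch 4 in AC, MG and OPC. The mean mitochondrial share of UMIs overlapped between groups in each type (two-sided exact permutation tests, P = 0.8 to 1). These tests did not use the pairing by batch. In every type the treated library had the lower share in batch 1 and the higher share in batch 4. In MG the shares were 4.08, 1.66 and 6.20% in the aged and 2.72, 1.70 and 9.23% in the treated libraries. The authors' counting is not stated to separate this gene from transcripts of the opposite strand.

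Genes of GLP-1 receptor and cAMP signalling were described in each type, because they lie downstream of the drug's known target. Of 38 genes, 28 were tested in AC. There 3 were higher (Adcy2, Adcy6, Crtc1) and 1 lower (Pde10a) with an unadjusted P under 0.05, beside 3.58 and 3.02% of all genes. In MG 1 of 26 was higher (Adcy1, beside 3.64% of all genes), and in OPC 0 of 24 and in CPC 0 of 11 had an unadjusted P under 0.05 by edgeR. In SMC 1 of 21 (3.07% of all genes), in PC 1 of 4 (3.63%) and in MAC 1 of 5 (2.71%) was higher. No gene of the list was called in any type. The gene in SMC, PC and MAC was Rapgef4 in each case, which encodes the exchange factor Epac2 that cAMP activates. In SMC it was at 31.6, 60.5 and 128 CPM in the aged libraries and at 147, 79.8 and 199 CPM in the exenatide-treated aged libraries, higher in each batch (lnFC 0.58 ± 0.19, unadjusted P = 0.00438). In PC it was at 149.7, 297 and 329 CPM in the aged libraries and at 477, 281 and 691 CPM in the exenatide-treated aged libraries, higher in batches 1 and 4 (lnFC 0.63 ± 0.20, unadjusted P = 0.00561). In MAC it was higher in each batch (lnFC 1.02 ± 0.34, unadjusted P = 0.00792, with 2.71% of all genes higher). Rapgef4 was highest in EC in the young adult libraries, and its level was 40.0% of that in EC in SMC, 74.2% in PC and 33.6% in MAC. The receptor gene Glp1r was not analysed here. Of the related receptors, Gcgr had 8 UMIs in total, all in SMC with 2 in aged and 6 in treated libraries. Gipr, the receptor of the other incretin, had 26 UMIs, of which PC held 4 in aged and 11 in treated libraries. Neither count supports a comparison of levels at this depth.

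The cAMP response element, the site that CREB binds, was searched as TGACGTCA in the same promoter windows, and 549 of 27025 genes held it, or 2.03%. Genes with the element had a median lnFC of -0.01 beside -0.00 for all genes with a promoter in AC (317 of 8441 genes). The medians were -0.01 and -0.00 in MG, 0.01 and 0.02 in OPC, 0.01 and 0.02 in SMC, -0.03 and 0.01 in PC, 0.00 and 0.00 in CPC, and 0.02 and 0.01 in MAC. In CPC, 9 of 185 genes with the element (4.86%) were higher with an unadjusted P under 0.05. The share was 4.48% for all genes with a promoter. Btg2, an antiproliferative immediate early gene, is shown as an example because it holds the element and had an unadjusted P under 0.05 in CPC, where it was at 20.5, 79.9 and 19.5 CPM in the aged libraries and at 68.3, 111 and 20.7 CPM in the exenatide-treated aged libraries (lnFC 0.41 ± 0.20, unadjusted P = 0.0421). In the other types where it was tested its unadjusted P was 0.0647 to 0.557. The window is chr1:134079106-134079405, read on the minus strand, with the element in capitals, its first base at -166 from the start site.
Btg2 promoter: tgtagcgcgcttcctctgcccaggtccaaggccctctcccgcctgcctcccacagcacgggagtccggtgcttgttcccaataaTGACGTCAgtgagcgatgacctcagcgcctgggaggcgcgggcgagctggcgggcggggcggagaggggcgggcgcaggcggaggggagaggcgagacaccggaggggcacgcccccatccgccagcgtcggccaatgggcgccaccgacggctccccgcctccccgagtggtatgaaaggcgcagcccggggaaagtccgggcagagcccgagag
The young adult level of Btg2 in CPC was 3.97% of that in MG, so that it was low in the type.

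Whether a type responded differently from another was tested directly, as the type by treatment term with each library as a block. MAC differed from EC in 15 of 8094 genes (0.185%), MG from MAC in 2 of 6833 (0.0293%), OPC from EC in 1 of 10779 (0.00928%) and SMC from PC in 1 of 2716 (0.0368%). AC, MG, SMC, PC and CPC against EC, and AC against OPC, gave 0 calls by edgeR, also with relative log expression scaling, with an unadjusted P under 0.05 for 490 of 11901, 505 of 11578, 348 of 8520, 288 of 7657, 247 of 11010 and 277 of 10047 genes. The responses outside the endothelium were therefore not shown to differ from that of EC for any single gene in those 5 types.

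The 15 genes of MAC against EC included 6 that macrophages and microglia express. C1qa, C1qb, C1qc and Tyrobp, subunits of complement and of a myeloid signalling receptor, Ctss and Lyz2 had a lower response in MAC than in EC. For C1qa the lnFC was -0.09 in MAC and 0.65 in EC, and the difference was -0.72 ± 0.14 (FDR-adjusted P = 0.00219 by edgeR). For Tyrobp it was -0.05 and 0.76, and for Ctss -0.37 and 0.52. In EC, as in AC, OPC, PC and CPC, C1qa was far below its level in MG. Mt2 and Klf2 had a higher response in MAC, with an lnFC of 1.32 against 0.10 and of 0.78 against 0.01. Of these, Mt2 was among the genes low in MAC. Rgs5, Slco1a4 and Ly6c1, genes of pericytes and endothelium, also had a higher response in MAC, and aged library 1 held 0 UMIs of each in its 11 MAC. Without batch 1 or without batch 4, 0 of the 15 were called, and the difference for C1qa was -0.32 without batch 4. MG and MAC differed for Klf2 (MG minus MAC -0.95 ± 0.16, FDR-adjusted P = 2.13e-05 by edgeR) and for Exosc2. Without batch 2 the difference for Klf2 was -0.97 and not called (FDR-adjusted P = 0.529 by edgeR). Without batch 4 that for Exosc2 was 0.40 and not called.

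The share of each type among all cells overlapped between groups in all 7 types. AC made up 25.7, 17.7 and 22.4% of the cells in the aged and 23.1, 20.9 and 27.8% in the treated libraries. MG made up 22.0, 27.3 and 20.5% against 29.5, 24.1 and 26.8%, which is 3.55 percentage points more after treatment (P = 0.3 by a two-sided exact permutation test). CPC made up 6.61, 6.12 and 13.4% against 3.90, 6.30 and 7.30%, where the aged library of batch 4 was the highest. The differences of the others were 1.99 percentage points in AC, -2.88 in CPC, 0.492 in SMC, -0.651 in PC, 0.112 in OPC and -0.0215 in MAC (exact permutation tests, P = 0.5 to 1, where 3 against 3 libraries cannot go below 0.1). PC were the only type whose share was lower in the treated library of every batch. The median number of UMIs per cell was lower on average in treated libraries in all 7 types (exact permutation tests, P = 0.2 to 0.7), with differences from -778.5 in MG to -269.8 in CPC. Much of this rests on aged library 1. Without it the differences were -154.5 in AC, -227.7 in MG, -74.7 in OPC, -182.6 in SMC, -56.9 in PC and -213.5 in MAC. In CPC the difference was smallest without aged library 4 (-20.5).

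**Figure D5:**
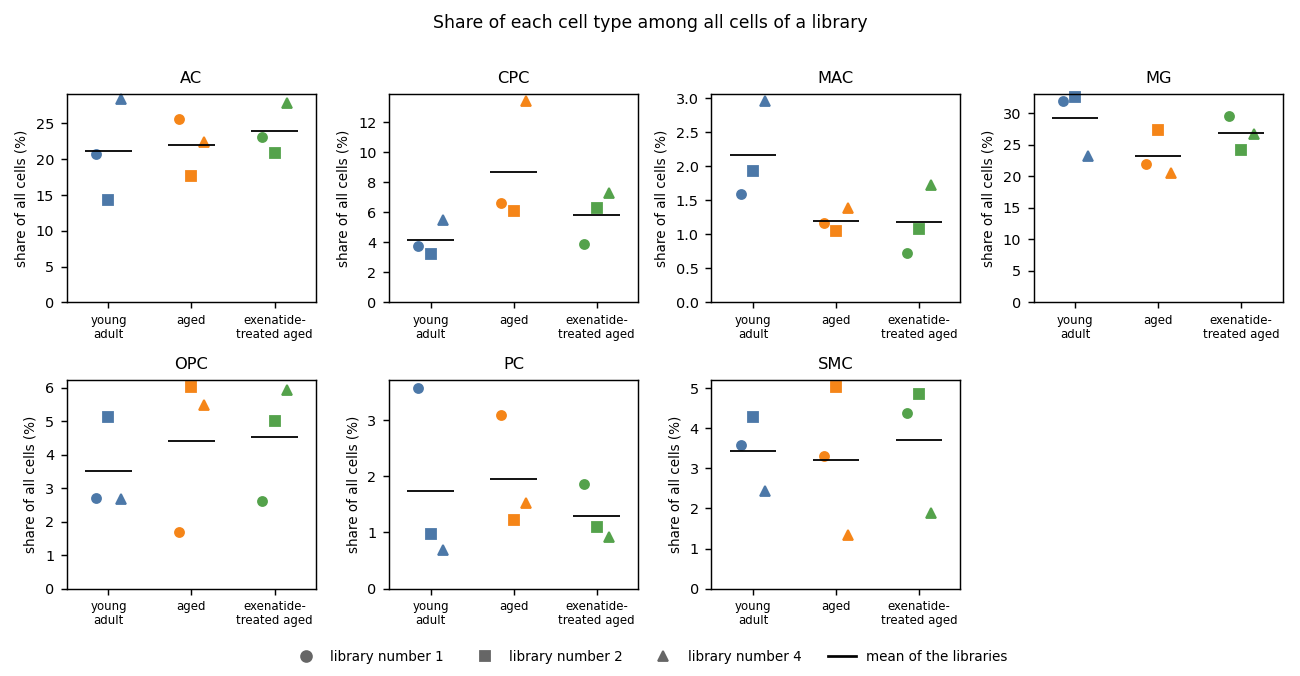
Share of all cells of the library, in percent (linear axis), of 7 cell types in young adult, untreated aged and treated aged libraries; shapes give the library number and black lines the group means. The aged and treated groups overlap in each type, and CPC of aged library 4 lie above all other CPC values.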

How the data were processed

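Single-cell RNA sequencing in droplets (10x Chromium, 3' chemistry) profiled brain cells in 9 libraries, 3 for each of the 3 groups. According to the submitters' processing notes and the methods, the authors aligned reads and counted UMIs with Cell Ranger 3.0.0 on mm10, filtered cells by UMIs, genes and mitochondrial share, removed clusters with the markers of several cell types, and annotated cells in Seurat 3.0.1. Doublets were not called again.

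Values in the deposited matrix are natural log values, computed by the authors from each gene's UMI count after scaling every cell to a fixed total and adding 1. The deposited table of cells gives total UMI counts, the mitochondrial share as a fraction, the library, the batch and the cell type. Raw counts had been assumed in the design, so they were recovered by exponentiation. All 58404382 entries were whole within 1e-06, and sums equalled the deposited total in 72543 of 72543 cells, over 19746 genes.

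Counts were summed per type and library. For each type, edgeR 4.0.16 in R 4.3.3 fitted its robust quasi-likelihood test to 9 libraries after TMM scaling and filterByExpr, with group as the only term, and again with the batch as a replicate block. P-values were adjusted by Benjamini-Hochberg, and a gene was called below 0.05 with an absolute lnFC above 0.1. The SE is the lnFC divided by the root of F. The biological coefficient of variation was 0.279 to 0.355 and, with the block, 0.135 to 0.202. The pairing comes from the library numbers, which mark batches in the deposited table, and was checked on deviations from group means across genes. Same-numbered libraries correlated at 0.158 or more in every pair and type, with medians of 0.361 to 0.610, and differently numbered ones had medians of -0.346 to -0.184. Deviations within a group cancel out, so that the negative values follow from the positive ones and are no separate check. Differences of response between types were tested in the aged and treated libraries with each library as a block. Shares and medians of 3 against 3 libraries were compared by two-sided exact permutation tests, whose smallest P is 0.1. DESeq2 1.42.0, limma 3.58.1 on mean ln values (pseudocount of 1 inside the logarithm), other scaling, no filter, 6 libraries and leaving out each library were alternatives. The paper's test on single cells was not used. Sums of counts carry counting error as well as the spread between libraries. The edgeR procedure was tested on simulated data.

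The genes named are all those called with or without the batch term. In types with no call, they are the 2 higher and 2 lower with the smallest P in the fit with the batch term. Defining markers, Glp1r and called list members were also to be named. Other list members are named by their unadjusted P, and some that the lists count are not reported by name here. The cell types, lists and tests were chosen with earlier results of these data known. Gene positions are those of GRCm38 (GENCODE M21), and promoters are those of RefSeq. The table's ribosomal share and cluster numbers were left out.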

Additional observations from a re-analysis of the deposited data

Results flagged for a closer look

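In 19 cases a gene's response to exenatide differed between 2 cell types in the test of the difference itself (edgeR, type by treatment term, each library a block). Values are differences in lnFC. MAC minus EC was 2.25 for Rgs5, 0.95 for Tsc22d1, 1.17 for Mt2, 0.74 for Klf2, 1.19 for Slco1a4 and 0.84 for Ly6c1. It was 6.33 for Epn2, whose UMIs in MAC were 0 in each aged library and 2, 4 and 21 in the treated ones, so that this fitted value depends on the prior count and is no bound. MAC minus EC was negative for C1qa (-0.72), C1qb (-0.75), C1qc (-0.71), Tyrobp (-0.77), Ctss (-0.85), Lyz2 (-0.66), Exosc2 (-1.42) and Cd86 (-2.32). MG minus MAC was -0.95 for Klf2, which was not called without batch 2, and 1.58 for Exosc2, which was not called without batch 4. OPC minus EC was -2.95 for Olfr655, of which OPC held 0, 1 and 26 UMIs in the aged and 0, 1 and 3 in the treated libraries. Without batch 4 that difference was -1.94 and not called (FDR-adjusted P = 1 by edgeR). SMC minus PC was -2.23 for Ptgds, of which SMC held 0, 402 and 7 UMIs in the aged and 32, 64 and 46 in the treated libraries, and it was -0.22 without batch 2.

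The 11 MAC of aged library 1 held no UMI of Rgs5, Tsc22d1, Exosc2, Slco1a4 and Ly6c1. With batch 1 left out, MAC against EC gave 0 calls by edgeR (251 of 10713 genes with an unadjusted P under 0.05), with batch 4 left out 2, neither of them among the 15 above, and with batch 2 left out 38. The 19 differences kept their sign when any one batch was left out, but without batch 4 that of Exosc2 was -0.086, that of Lyz2 -0.20 and that of C1qc -0.23 (MAC minus EC). No sample of a group was tested as standing apart from the rest by its distance, since each group has 3 libraries.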

How the results depend on the processing

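The batch as a replicate block (the pairing by number) raised the count of called genes from 0 to 2 in SMC and left it at 0 in the other 6 types. With the block and 6 libraries, edgeR called 22 genes in AC, 47 in MG, 1 in CPC and 0 in the other 4 types, SMC among them. Of the 22 and 47, 21 and 41 were higher, and 19 and 33 were low in the type. With the block, DESeq2 called 1 gene in AC (C1qa) and 1 in CPC (Tmsb4x), limma 1 in CPC (Malat1) and relative log expression scaling 2 in CPC and 2 in SMC. Without the filter on low counts, 1 gene was called in MAC (Rgs5). Leaving out 1 library with the block gave 0 to 27 calls in AC, 0 to 22 in CPC (18 without aged library 2), 0 to 3 in MAC, 0 to 10 in MG, 0 to 2 in PC, 0 to 52 in SMC and 0 in OPC, and without the block 0 to 1 in SMC. Without aged library 1 and with the block, all 7 types had 0 calls by edgeR. Leaving out a batch gave 0 to 38 calls for MAC against EC, 0 to 55 for MG against EC, 1 to 39 for SMC against EC, 0 to 5 for AC against EC, 0 to 6 for CPC and for OPC against EC, 0 to 3 for AC against OPC, 2 to 4 for MG against MAC and 1 to 6 for SMC against PC. The difference in median lnFC between genes low in the type and all genes moved to 0.326 in CPC with the limit at 5%, and in OPC to 0.309 at 5%, 0.0492 at 20%, 0.212 without the filter and 0.194 with DESeq2 and the block. Over fits without 1 library it ranged from 0.0902 to 0.256 in AC (0.110 to 0.243 with the block), 0.0963 to 0.289 in CPC (0.116 to 0.246), 0.0977 to 0.270 in MG (0.158 to 0.347), 0.0604 to 0.212 in OPC (0.0122 to 0.335, and 0.255 without aged library 2), 0.144 to 0.385 in PC (0.223 to 0.424), 0.236 to 0.739 in SMC (0.205 to 0.689, and 0.555 without treated library 2) and 0.103 to 0.441 in MAC (0.0742 to 0.504). The difference in share turned to -0.0456 points for OPC as a share of cells other than EC, and without 1 library ranged from -0.145 to 3.88 in AC, -0.294 to 0.201 in MAC, -1.24 to 1.06 in OPC and -0.454 to 1.40 in SMC. The difference in mitochondrial share turned to 0.275 in OPC with medians over cells, and ranged from -3.00 to 2.09 in AC, -1.84 to 1.72 in CPC, -3.30 to 0.381 in MAC, -1.77 to 1.99 in MG, -2.94 to 1.30 in OPC, -2.80 to 2.87 in PC and -2.51 to 1.89 in SMC. Among named genes, the sign turned only in fits without the batch term. There it turned for Slc12a2 in CPC without aged library 1 (-0.059, against 0.72 without aged library 2), Btg2 in CPC without treated library 2 (-0.016, against 1.19 without aged library 2) and Klf2 in MAC without treated library 2 (-0.67, against 2.41 without aged library 2). With the batch term, Btg2 in CPC ranged from 0.195 to 0.683 over the fits without 1 library. The cause of these changes was not tested.

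Aged library 1 limits all sums in its batch, and MAC, OPC, PC and SMC rest there on 11 to 31 cells. For genes at few UMIs per library, counting error adds to the spread. Positive values of genes low in a type cannot be told apart from the larger number of cells in the treated libraries.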
